A study of Mus musculus with 4 samples.

Results

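The 78 genes described here encode proteins of the mitochondrial ribosome. They were taken by symbol as every row named Mrpl or Mrps followed by a number and at most 1 lower-case letter, out of 49997 genes in each count table. Of these, 49 carry an Mrpl symbol (large subunit) and 29 an Mrps symbol (small subunit). All 78 had at least 302 reads in every library and passed the filter on low counts, so none was lost to it.

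RNA came from cultures of the mouse aorta-gonad-mesonephros (AGM), the embryonic region in which blood stem cells first arise. Tissue of C57BL/6J embryos was kept in culture for 48 hours, in 2 libraries untreated and in 2 with 5 µM CCCP throughout. CCCP is a protonophore, a compound that carries protons across the inner mitochondrial membrane and so collapses the gradient that drives ATP synthesis. Both groups shared the medium with hydrocortisone and the culture at the gas-liquid interface. The growth protocol names stages E10.5 and E11.5 and the series design E10.5 alone. The cell type label reads embryonic HSCs (haematopoietic stem cells) and the series design speaks of c-kit+ HSCs, which would be a selected population, whereas the extraction protocol names explants and no selection. Which of these was sequenced is not settled by the labels, and no label gives the number of embryos per library or says that replicates were separate cultures, so p-values here measure the spread between these libraries, which may be technical.

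Mitochondria translate the few proteins encoded by their own DNA on a dedicated ribosome. Its large subunit holds the centre that joins amino acids and its small subunit reads the messenger RNA. The 2 ribosomal RNAs come from mitochondrial DNA, whereas all the proteins are encoded in the nucleus, made in the cytosol and imported. Some of these proteins have bacterial counterparts and others are found only in mitochondria. All proteins made on this ribosome in mammals are subunits of the oxidative phosphorylation complexes, which CCCP uncouples from ATP synthesis.

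The nuclear genes of mitochondrial proteins are known for start regions with sites for NRF1, for ETS family factors such as GABPA, and for YY1, so the start regions of these genes were searched for those letters. RefSeq promoter windows on GRCm38.p6, from 250 bases before to 50 after a start, were matched by symbol for 69 of the 78 genes (75 windows). Both strands were searched for CCGGAAGTG (ETS) and for the letters in capitals below at Mrpl9 (NRF1, the same on both strands) and Mrpl35 (YY1), and no match overlapped one of another motif. The NRF1 letters stood in 3 of the 75 windows (4.0%, against 1.60% of the 18036 windows of genes tested), in Mrpl9, Mrpl32 and Mrpl39. The ETS letters stood in 4 windows (5.33% against 3.29%) and the YY1 letters in 5 windows (6.67% against 1.10%). A match is a description of the sequence and does not show binding. Any of the 3 motifs stood in 11 of the 69 genes (15.9%, against 6.82% of genes tested), so most of the 69 had none. In 48 of the 75 windows the start was that of the gene as counted. The matched sites are printed in the gene's own direction with the motif in capitals.
Mrpl9 NRF1: gcgcagctGCGCATGCGCggggtcct
Mrpl32 NRF1: tgacccttGCGCATGCGCaagagggg
Mrpl39 NRF1: ggagaggcGCGCATGCGCccccgcgt
Mrpl3 ETS: gaaacggaCCGGAAGTGgcccggct
Mrpl52 ETS: gccacgccCACTTCCGGttcccttg
Mrps26 ETS: tccgcggcCACTTCCGGgccgggcg
Mrps27 ETS: ggtaggacCACTTCCGGcggaggcg
Mrpl35 YY1: caggctgcAAGATGGCGGCttccatct
Mrpl37 YY1: cacgggcaAAGATGGCGGCgtccaggt
Mrps18a YY1: tgcgttccAAGATGGCGGCcctcaggg
Mrps27 YY1: tgcgctccAAGATGGCGGCtcccatgg
Mrps11 YY1: ctacgggcGCCGCCATCTTtctgtctt

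The YY1 letters lay 12 to 27 bases after the start in Mrpl35, Mrpl37, Mrps18a and Mrps27, in the direction of the gene. In Mrps11 they lay 110 bases before the start on the other strand. There they fell within the span of Mrpl46 and in the direction of that gene. Mrpl46 is the large subunit gene that begins 42 bases away in the opposite direction. The whole stretch before the start is given for Mrpl39 and Mrpl3, in which no base belongs to an annotated exon, again with the motif in capitals. For Mrpl39 (minus strand, chr16:84735245-84735494) the NRF1 letters begin 125 bases before the start, and for Mrpl3 (plus strand, chr9:105053018-105053267) the ETS letters begin 19 bases before it.
Mrpl39: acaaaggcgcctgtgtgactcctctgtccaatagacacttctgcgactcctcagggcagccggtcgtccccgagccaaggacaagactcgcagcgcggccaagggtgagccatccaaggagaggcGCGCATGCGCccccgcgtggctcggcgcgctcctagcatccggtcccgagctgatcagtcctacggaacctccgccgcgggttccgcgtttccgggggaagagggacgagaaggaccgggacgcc
Mrpl3: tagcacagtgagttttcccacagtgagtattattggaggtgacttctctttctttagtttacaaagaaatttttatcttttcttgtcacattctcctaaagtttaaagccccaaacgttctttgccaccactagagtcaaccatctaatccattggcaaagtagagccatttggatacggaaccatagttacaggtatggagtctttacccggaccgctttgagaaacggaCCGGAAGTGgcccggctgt

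The libraries held 37360968 to 48827826 counted reads, and replicate 1 was the deeper of each group. No pair of libraries agreed within counting noise (chi-square per degree of freedom of at least 37.5). The stem cell label was checked on 12 haematopoietic markers, of which 11 passed the filter. Their summed level was 226 and 248 CPM (counts scaled to library size with TMM factors) untreated and 194 and 216 CPM in CCCP. Kit stood at 47.6 to 63.2 CPM and Ptprc at 3.39 to 6.85 CPM. Other marker sets, which differ in the number of genes, were summed in the same way. Over the 4 libraries, mesenchymal markers had 1948 to 3291 CPM and erythroid markers 1885 to 2898 CPM. Neural markers had 692 to 850 CPM, endothelial 413 to 563 CPM and skeletal muscle 387 to 573 CPM. Macrophage markers had 145 to 218 CPM and mesonephric and gonadal markers 126 to 193 CPM. RNA of other cell types was thus present in every library. All 11 hepatic markers were lower in CCCP without overlap, and their summed level was 1006 to 1773 CPM untreated and 53.6 to 110 CPM in CCCP (Ahsg had 0 reads in CCCP replicate 1). In bulk RNA, fewer cells of a type and less RNA per cell cannot be told apart, and the part of such shifts in the values below was not tested.

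Compared by group, transcripts of the mitochondrial ribosomal proteins were slightly more abundant in CCCP for nearly every gene. The libraries of the groups overlapped for 31 of the 78. The median difference between the groups was 0.28 in log2 CPM. The median gap between libraries of the same group was 0.30 untreated and 0.15 in CCCP. The log2 fold change (CCCP over untreated) was above 0 for 76 of the 78 genes, against 49.2% of the 19837 genes tested, and below 0 for 2 (against 50.8%). Its median was 0.28 for the large subunit (47 of 49 genes higher) and 0.30 for the small subunit (29 of 29 higher), about 1.21-fold and 1.23-fold, beside -0.01 over all genes tested. None of the 78 passed in the edgeR quasi-likelihood fit at a Benjamini-Hochberg adjusted p of 0.05, where 0% of all genes tested were called. The adjusted p-values ran from 0.242 to 0.920. At an unadjusted edgeR p under 0.05, 13 genes were higher in CCCP (16.7%, against 5.45% of all genes tested) and 0 were lower (against 9.16%). DESeq2 also called 0 of the 78 (2.99% of all genes), with a smallest adjusted p-value of 0.109.

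The untreated libraries differed from each other as much as the groups did. The summed level of the 78 genes was 2027 and 2540 CPM in untreated replicates 1 and 2 and 2615 and 2928 CPM in CCCP replicates 1 and 2. Untreated replicate 2 thus lay close to CCCP replicate 1. The latter was higher for 49 of the 78 genes, with a median log2 difference of 0.04. Between same-numbered libraries, 76 genes were higher in CCCP replicate 1 (median 0.37) and 71 in CCCP replicate 2 (median 0.22). Of all 19837 genes tested, 9855, 9961 and 9929 were higher in the same order. All 78 genes were higher in untreated replicate 2 than in replicate 1, by a median of 0.30 on the log2 scale, and untreated replicate 1 was the lowest of the 4 libraries for 76 of the 78. For 46 genes the gap between the untreated libraries was larger than the difference between the groups, and for 19 genes the gap between the CCCP libraries was. Without untreated replicate 1 the median log2 fold change was 0.13 for the large and 0.18 for the small subunit, and without untreated replicate 2 it was 0.49 for each.

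**Figure D1:**
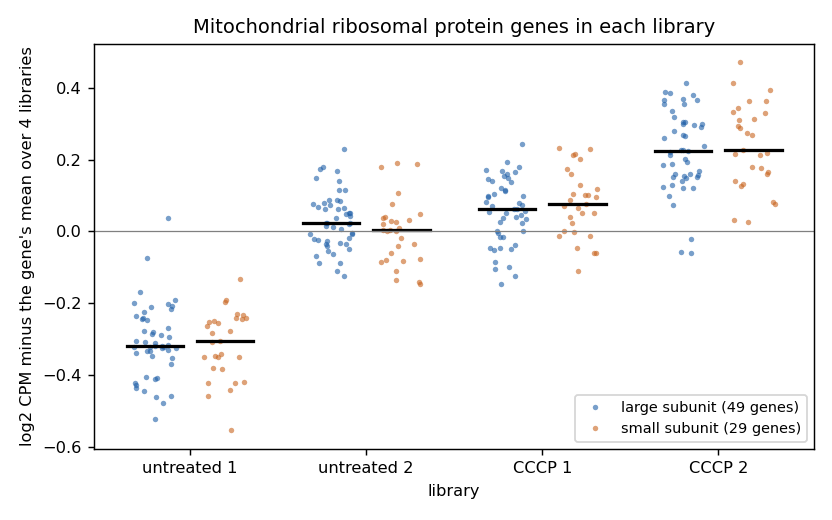
Log2 CPM of each gene minus its own mean over the 4 libraries (y axis), by library (x axis); points are genes, blue for the large and orange for the small subunit, and black bars are medians. Untreated replicate 1 sits lowest in both subunits, and untreated replicate 2 lies near CCCP replicate 1.

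For 46 of the 78 genes the lower CCCP value exceeded the higher untreated value (59.0%, against 24% of all genes tested). These were 27 of 49 large subunit and 19 of 29 small subunit genes. The reverse order without overlap was seen for 1 gene, Mrpl50 (against 24.8% of all genes tested). With untreated replicate 1 left out, the same count was 46 of 78, beside 36.7% of all genes tested. This count could not change, because untreated replicate 2 was the higher untreated library for all 78 genes. With untreated replicate 2 left out the count was 76, beside 40.1%. With CCCP replicate 1 left out it was 71, beside 36.7%, and with CCCP replicate 2 left out it was 49, beside 34.0%. The proportion of the subunits was nearly constant: the summed CPM of the large subunit genes over that of the small was 1.99 and 2.04 in the untreated and 1.97 and 1.98 in the CCCP libraries. The groups do not overlap in this ratio, but the gap between the untreated libraries is larger than the gap between the groups.

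**Figure D2:**
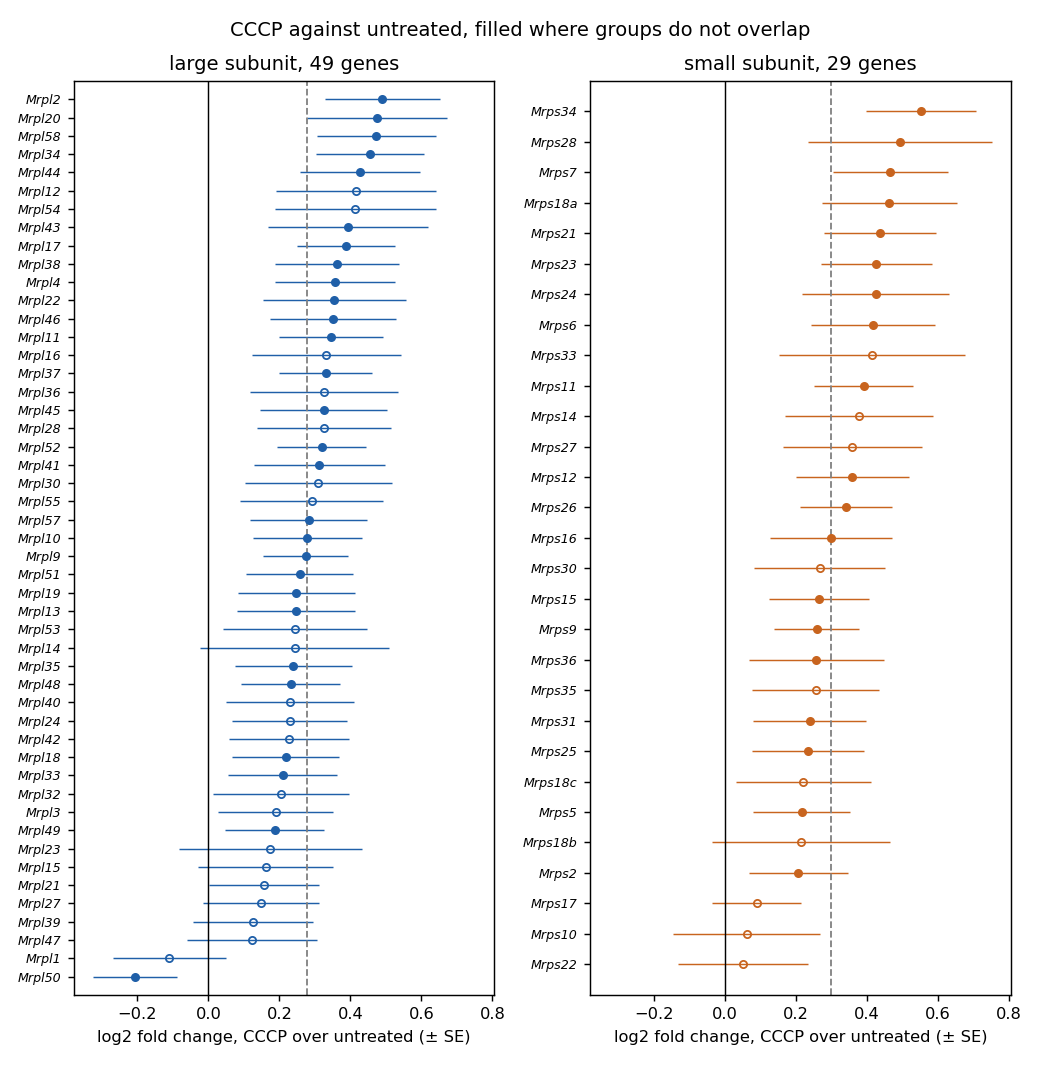
Log2 fold change of CCCP over untreated for each gene (x axis, bars are the standard error of the edgeR fit, 2 libraries per group), genes in order of size on the y axis; filled points are genes whose groups do not overlap, and dashed lines are the medians of 0.28 and 0.30. Mrpl50 and Mrpl1 alone lie below 0.

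Among large subunit genes, those with no overlap and the smallest p-values were Mrpl2, Mrpl34, Mrpl58, Mrpl17, Mrpl52 and Mrpl37. Mrpl2, counterpart of a bacterial protein that lies near the catalytic centre, had 27.7 and 35.9 CPM untreated and 42.9 and 46.4 CPM in CCCP. Both CCCP values lay above both untreated ones, and the log2 fold change was 0.49 (SE 0.162, edgeR adjusted p 0.280). Its exons (chromosome 17, 46646172 to 46650132) overlap those of Klc4 on the opposite strand, and reads were counted without regard to strand. Mrpl34 (chromosome 8, 71464926 to 71465753), a short protein of bacterial origin, had 24.6 and 30.0 CPM untreated and 35.6 and 39.2 CPM in CCCP, a log2 fold change of 0.46 (SE 0.152, edgeR adjusted p 0.284).

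Mrpl58 (chromosome 11, 115403724 to 115412674) encodes a peptidyl-tRNA hydrolase that frees stalled ribosomes and also sits in the large subunit. It had 30.0 and 34.8 CPM untreated and 39.4 and 50.6 CPM in CCCP, so the CCCP libraries were further apart than the untreated ones. Its log2 fold change was 0.47 (SE 0.168, edgeR adjusted p 0.302), and 0.29 without CCCP replicate 2. Mrpl17 (chromosome 7, 105803782 to 105811087) has 6712 bases of exon and is long for this family. It stood at 31.7 and 37.8 CPM untreated and 44.5 and 46.3 CPM in CCCP, with a log2 fold change of 0.39. Mrpl52, found only in mitochondria, and Mrpl37 had 0.32 and 0.33. Mrpl52 was at 29.2 and 31.3 CPM untreated and 38.1 and 37.4 CPM in CCCP, and in each group its replicates lay closer together than the groups did. Mrpl37 was at 41.7 and 48.7 CPM untreated and 55.0 and 58.7 CPM in CCCP, and its exons overlap those of Cyb5rl on the opposite strand. The edgeR adjusted p-values of Mrpl17, Mrpl52 and Mrpl37 were 0.303, 0.328 and 0.333.

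Mrpl12 (chromosome 11, 120484637 to 120488754) forms the stalk that recruits translation factors and also binds the mitochondrial RNA polymerase. It had 35.8 and 54.7 CPM untreated and 53.5 and 67.0 CPM in CCCP. Untreated replicate 2 lay above CCCP replicate 1, so there was overlap, at a log2 fold change of 0.42 (edgeR adjusted p 0.436). Leaving out untreated replicate 1 gave 0.15, and leaving out untreated replicate 2 gave 0.78. Mrpl13, of bacterial origin, had a log2 fold change of 0.25 (38.0 and 51.4 CPM untreated, 52.3 and 53.7 CPM in CCCP), and of 0.05 without untreated replicate 1 and 0.51 without untreated replicate 2.

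Mrpl50 and Mrpl1 were the large subunit genes below 0. Mrpl50 (chromosome 4, 49512597 to 49521083), found only in mitochondria, had 56.7 and 62.1 CPM untreated and 49.9 and 53.0 CPM in CCCP. Both CCCP values lay below both untreated ones, and the log2 fold change was -0.21 (SE 0.118, edgeR adjusted p 0.455). Mrpl1 (chromosome 5, 96209498 to 96266727), part of the stalk through which used tRNA leaves, had 21.2 and 25.3 CPM untreated and 21.1 and 22.0 CPM in CCCP, a log2 fold change of -0.11 with overlapping groups. Their transcripts were low in GC, at 42.3% for Mrpl50 and 41.4% for Mrpl1 against a median of 51.4% over the 78 genes. Other genes of as low a GC content lay above 0, Mrpl32 (40.6%) at 0.20 and Mrps30 (42.3%) at 0.27. With the trend over GC content removed from each library, the log2 fold change was 0.07 for Mrpl50 and 0.21 for Mrpl1.

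Among small subunit genes the smallest p-values belonged to Mrps34, Mrps7, Mrps11, Mrps21, Mrps23 and Mrps26. Mrps34 (chromosome 17, 24895120 to 24896289), found only in mitochondria and needed for a stable small subunit, had 22.2 and 27.0 CPM untreated and 34.4 and 37.6 CPM in CCCP. The groups did not overlap, and the log2 fold change of 0.55 (1.47-fold, SE 0.155, edgeR adjusted p 0.242) was the highest of the 78. Without untreated replicate 1 it was 0.42. Mrps7 (chromosome 11, 115604140 to 115608036), counterpart of a bacterial protein that starts assembly of the head of the subunit, had 31.6 and 38.9 CPM untreated and 44.3 and 53.0 CPM in CCCP. Its log2 fold change was 0.46 (SE 0.162, edgeR adjusted p 0.296), and its exons overlap those of Mif4gd and Gga3 on the opposite strand.

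Mrps11 (chromosome 7, 78783131 to 78792988), a protein of the platform of the subunit, had 20.9 and 22.5 CPM untreated and 28.8 and 28.0 CPM in CCCP. Its replicates lay closer together than the groups, and its log2 fold change was 0.39 (edgeR adjusted p 0.306). Mrpl46, which starts 42 bases from it in the opposite direction, had 0.35 with no overlap either. Mrps21 was at 22.6 and 27.1 CPM untreated and 31.4 and 35.7 CPM in CCCP, with a log2 fold change of 0.44. Mrps23, found only in mitochondria, was at 29.2 and 35.2 CPM untreated and 39.7 and 46.8 CPM in CCCP, with a log2 fold change of 0.43. Mrps26, also found only in mitochondria, was at 24.5 and 25.3 CPM untreated and 31.6 and 31.5 CPM in CCCP, with a log2 fold change of 0.34. For each of these the CCCP libraries lay above the untreated ones, and the edgeR adjusted p-values were 0.307, 0.310 and 0.323. Without CCCP replicate 2 the value of Mrps23 was 0.31. Mrps23 shares exon bases with Cuedc1 on its own strand.

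The Mrps18 paralogs are descendants of a single bacterial protein, and each occupies its own place in the ribosome. Mrps18a, whose product is found in the large subunit in structures of the mammalian ribosome, had 22.1 and 28.8 CPM untreated and 31.2 and 39.0 CPM in CCCP. There was no overlap, at a log2 fold change of 0.46. Mrps18b had 14.3 and 21.9 CPM untreated and 18.4 and 23.6 CPM in CCCP, and Mrps18c 21.0 and 28.7 CPM untreated and 30.6 and 27.2 CPM in CCCP. The groups of both overlapped, with log2 fold changes of 0.21 and 0.22. Without untreated replicate 1 they were -0.05 and 0.02, and without untreated replicate 2 they were 0.58 and 0.49. Exon bases of Mrps18b overlap Gm16279 on the opposite strand. The edgeR adjusted p-values of the 3 paralogs were 0.342, 0.709 and 0.611, and the differences between them were not tested.

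Mrps12, which lies at the decoding site, had 17.1 and 19.6 CPM untreated and 24.4 and 22.6 CPM in CCCP, without overlap and with a log2 fold change of 0.36. Mrps30, whose product is also found in the large subunit, had 32.0 and 42.9 CPM untreated and 40.8 and 49.3 CPM in CCCP, with overlap and a log2 fold change of 0.27. It was 0.08 without untreated replicate 1. Mrps36, whose product has also been described as a subunit of the ketoglutarate dehydrogenase complex, had 11.8 and 14.3 CPM untreated and 14.6 and 16.6 CPM in CCCP and a log2 fold change of 0.26. The edgeR adjusted p-values of Mrps12, Mrps30 and Mrps36 were 0.363, 0.525 and 0.550. The lowest values of the small subunit, 0.05 for Mrps22, 0.06 for Mrps10 and 0.09 for Mrps17, all came with overlapping groups. With Mrps18a and Mrps30 read with the large subunit and Mrps36 left out, the medians were 0.28 and 0.32.

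Transcripts of the genes of this ribosome were found at unequal levels, although its proteins occur together in each particle. Before division by exon length, the mean level ran from 9.11 to 69.6 CPM. Per kilobase of exon, the mean level over the 4 libraries ran from 3.83 CPM per kilobase for Mrps10 to 82.5 for Mrpl52, with a median of 19.6. The highest large subunit genes were Mrpl52 (82.5), Mrpl13 (62.1) and Mrpl12 (53.8), and the highest small subunit genes were Mrps21 (57.2) and Mrps18c (53.6), all in CPM per kilobase. The lowest large subunit genes were Mrpl1 (4.90) and Mrpl48 (5.57), and the lowest small subunit gene was Mrps10. The exon length in the files sums all annotated exons of a gene and ran from 412 bases for Mrpl52 to 7205 for Mrpl15, so genes with long alternative exons come out low on this scale. Mrps10, of bacterial origin, had 6233 exon bases and 19.8 to 26.9 CPM over the 4 libraries. Mrpl48 had 5052 exon bases, 24.4 and 27.4 CPM untreated and 29.6 and 31.1 CPM in CCCP, with a log2 fold change of 0.23.

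**Figure D3:**
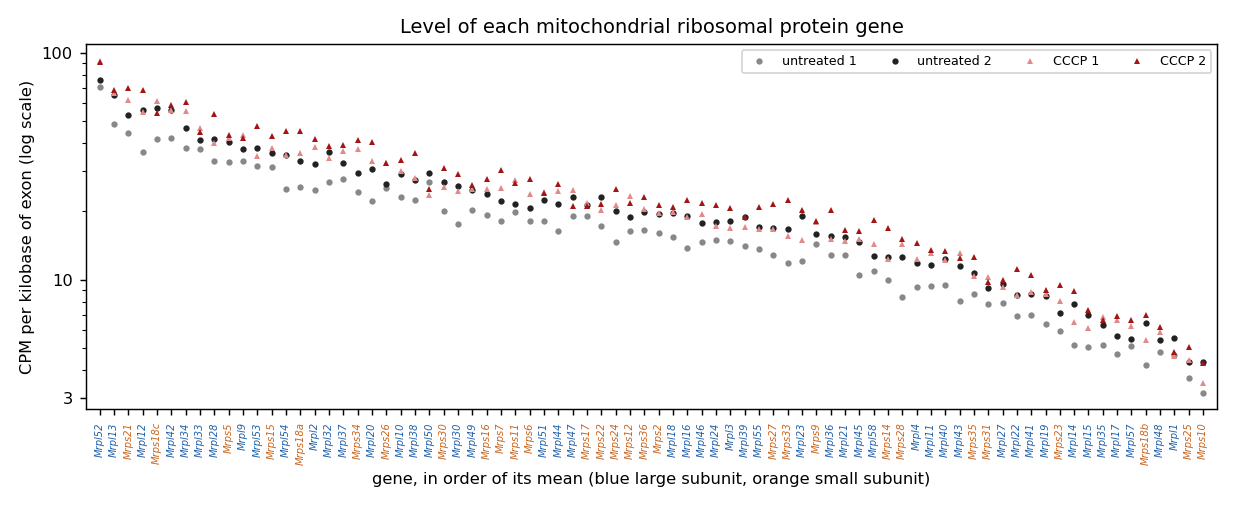
Level of each gene in CPM per kilobase of exon (y axis, log scale) in the 4 libraries, genes in order of their mean (x axis, blue large and orange small subunit symbols). Levels span from 3.83 to 82.5 in the mean, and the grey points of untreated replicate 1 lie lowest for nearly all genes.

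Exon length and GC content went with the log2 fold change in all genes, and the ribosomal genes are short. Their median exon length was 1638 bases, against 3467 bases over all genes tested. Over all genes tested, the median log2 fold change was 0.22 in the shortest of 10 length bins and -0.35 in the longest. In 10 bins of GC content it was -0.38 in the lowest and 0.16 in the highest. The 39 ribosomal genes of lower GC content (40.6% to 51.3%) had a median log2 fold change of 0.23, with 17 genes higher without overlap. All 8770 tested genes in that range had a median of -0.10, and 15.9% were higher without overlap. The 39 of higher GC content (51.6% to 60.8%) had a median of 0.36, with 29 such genes, beside a median of 0.14 and 37.4% for the 7554 tested genes in that range. The values were higher at higher GC content both in the family and over all genes tested.

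Each gene was then set against all tested genes in the same of 10 bins of exon length and the same of 10 bins of mean level. The bins included the 78 genes themselves. The median log2 fold change of those bins was 0.24 for the 78 genes, beside 0.28 for the genes themselves. The genes lay above their bin's median in 53 of 78 cases (67.9%, against 49.9% of all genes tested), by a median of 0.04 for the large and 0.09 for the small subunit. Without untreated replicate 1 these medians were -0.03 and 0.02, with 23 of 49 and 16 of 29 genes above. Without CCCP replicate 2 they were 0.00 and 0.06. The largest positive distances among the genes named here were 0.44 for Mrpl17, 0.38 for Mrps23 and 0.30 for Mrpl58, and Mrpl50 lay 0.45 below its bin (-0.45).

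By length class, the gap to all tested genes was widest in the class of long genes, where lengths were not matched. The 31 ribosomal genes with 2000 or more exon bases had a median log2 fold change of 0.24, beside -0.06 for all 14637 tested genes in that class. The 20 with under 1000 bases had 0.31, beside 0.22 for all 1847 tested, and the 27 between had 0.33, beside 0.17. The class of long genes has no upper limit. Its ribosomal genes end at 7205 bases, whereas the longest of the 10 bins of all tested genes has a median length of 13085.5 bases. The median log2 fold change of that bin was -0.35. In the bins with median lengths of 2526 and 3141 bases it was 0.10 and 0.08. The part of unequal lengths in the gap of this class was not tested. After removal of each library's trend over length, the medians were 0.16 and 0.18 for the large and small subunit, and 0.02 over all genes.

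**Figure D4:**
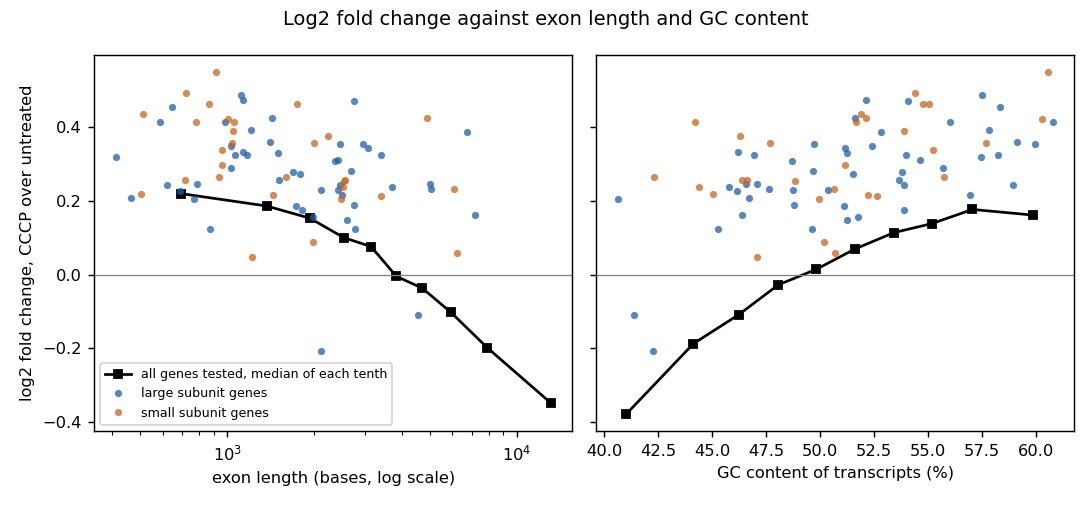
Log2 fold change of CCCP over untreated (y axis) against exon length in bases (left, log scale) and GC content of transcripts in percent (right); black squares are medians of all tested genes in 10 bins, and points are the ribosomal genes. Most ribosomal genes lie above the line of all genes at their length, and Mrpl50 at -0.21 lies lowest.

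Start sites shared with a neighbour were common in the family. For 24 of the 78 genes (30.8%, against 13.5% of all genes tested) another gene began within 1000 bases in the opposite direction. Mrps11 and Mrpl46 are each other's neighbour, so 22 neighbours lay outside the family. Of these 14 had a log2 fold change above 0, beside 49.2% of all genes tested. The median of the 22 was 0.17, beside 0.28 for the ribosomal genes of the same pairs and 0.06 for the 2673 tested genes with such a neighbour. Mrpl36 and Ndufs6, a complex I subunit, start 21 bases apart and had 0.33 and 0.40. Mrps12 and Sars2, the mitochondrial seryl-tRNA synthetase, start 136 bases apart and had 0.36 and 0.25. Mrpl50 and Zfp189 start 93 bases apart and both had lower values in CCCP, -0.21 and -0.43. Others went apart, such as Mrpl30 (0.31) and Mitd1 (-0.35). These pairs were chosen after their values were seen. Exon bases of 20 of the 78 genes overlap another gene, and the median log2 fold change was 0.26 for these and 0.28 for the other 58. The subunits went opposite ways. The large subunit had 0.24 with such overlap (13 genes) and 0.30 without, and the small subunit 0.42 with it (7 genes) and 0.27 without. These differences were not tested.

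The RNAs around which these proteins assemble are read from mitochondrial DNA. The small ribosomal RNA mt-Rnr1 had 606 and 497 CPM untreated and 1177 and 730 CPM in CCCP, without overlap, and a log2 fold change of 0.79 (edgeR adjusted p 0.272). The large ribosomal RNA mt-Rnr2 had 1579 and 1278 CPM untreated and 2426 and 1515 CPM in CCCP. Its groups overlapped, and its log2 fold change was 0.46 (edgeR adjusted p 0.444). In both, replicate 1 was the higher of each group, whereas the proteins' genes were mostly lower in replicate 1. The libraries were selected for poly(A), and the share of each rRNA that passed this selection was not tested.

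Ribosomal proteins named otherwise, assembly factors and translation factors were read from lists of 5, 28 and 17 genes, of which 5, 28 and 16 were in the files and all of those were tested. None of the 49 passed in edgeR with adjustment, and 4 were higher and 1 lower at an unadjusted edgeR p under 0.05 (5.45% and 9.16% of all genes tested). DESeq2 called 1 of the 49 (2.99% of all genes tested), the translation factor gene Guf1, lower in CCCP. Dap3, a GTP-binding protein of the small subunit, had 66.3 and 82.2 CPM untreated and 86.7 and 93.9 CPM in CCCP, a log2 fold change of 0.28. Ptcd3, another small subunit protein, had 58.4 and 68.1 CPM untreated and 52.6 and 57.2 CPM in CCCP, a log2 fold change of -0.20, and Aurkaip1 had 0.36 with overlapping groups. The edgeR adjusted p-values of Dap3, Ptcd3 and Aurkaip1 were 0.408, 0.497 and 0.506.

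Of the 28 assembly and rRNA modification genes, 24 had a log2 fold change above 0 (49.2% of all genes tested), with a median of 0.15. Their bins of length and level had a median of 0.14. Above their bin's median lay 18 of the 28 (64.3%, against 49.9% of all genes tested), at a median distance of 0.06. Without overlap, 12 were higher and 2 lower, beside 24% and 24.8% of all genes tested. The smallest p-values were those of Mpv17l2 (0.56), the helicase gene Ddx28 (0.48) and the pseudouridine synthase family gene Rpusd3 (0.45), given as log2 fold changes. Each was higher in both CCCP libraries, Ddx28 at 13.9 and 16.7 CPM untreated and 22.4 and 20.3 CPM in CCCP. Their edgeR adjusted p-values were 0.299, 0.309 and 0.381. Of the 16 translation factor genes, 9 had a value above 0, a share near the 49.2% of all genes tested, with a median of 0.07. Only 5 of the 16 lay above their bin's median (31.2%, against 49.9% of all genes tested), at a median distance of -0.09. Without overlap, 3 were higher and 5 lower, beside 24% and 24.8% of all genes tested. Guf1, a ribosome-bound GTPase, had 64.1 and 56.5 CPM untreated and 31.4 and 36.7 CPM in CCCP. Its log2 fold change of -0.82 (SE 0.140, edgeR adjusted p 0.148) was the lowest of the 3 lists, and its DESeq2 adjusted p was 0.00124. Oxa1l, which inserts new proteins into the inner membrane, had 0.36, and Tufm, the elongation factor that brings tRNA to the ribosome, had 0.38. Both were higher in both CCCP libraries, with edgeR adjusted p-values of 0.272 and 0.335.

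The gene families set beside this one were complex I, the largest oxidative phosphorylation complex, and the cytosolic ribosome. Of 39 complex I subunit genes tested, 37 had a log2 fold change above 0, with a median of 0.35, and 33 were higher without overlap, beside 24% of all genes tested and 29.1% of those with under 1000 exon bases. Of 82 cytosolic ribosomal protein genes tested, 82 were above 0, with a median of 0.38, and 26 were higher without overlap, a share near those backgrounds. The median distance of the complex I and cytosolic sets from the genes of the same length and level was 0.05 and 0.04. The bins include the sets' own genes, which makes such distances smaller. The cytosolic genes are short (median 864.5 exon bases) and abundant, and their share of their bins was not counted. Their small distance thus does not show that they went with other genes of that length and level. In the cytosolic set, the median deviation from each gene's mean was -0.49 and 0.10 in untreated replicates 1 and 2 and -0.01 and 0.41 in CCCP replicates 1 and 2, so untreated replicate 2 lay above CCCP replicate 1. In the complex I set it was -0.31, -0.04, 0.10 and 0.25 in the same order. The differences between these sets were not tested.

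**Figure D5:**
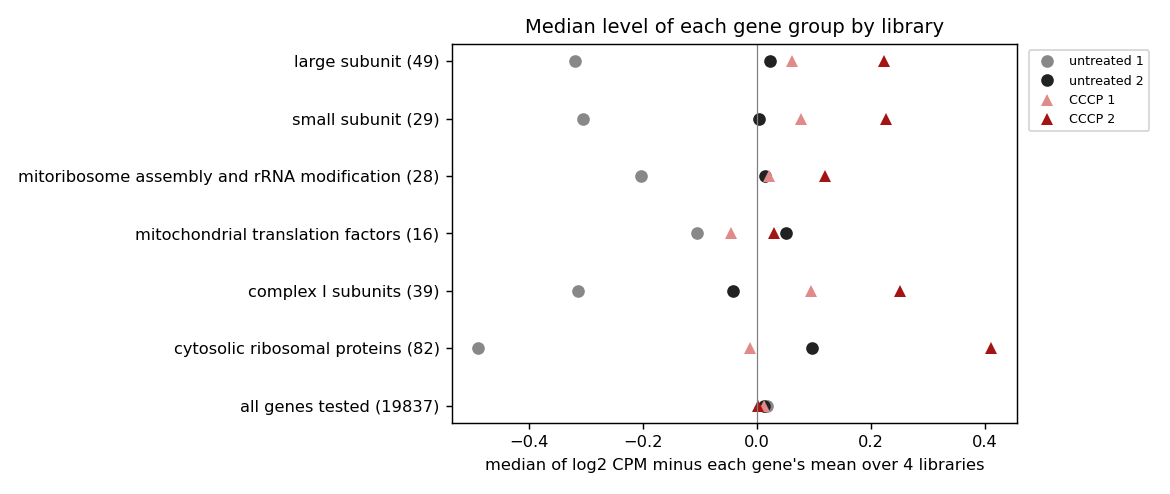
Median over each gene group (rows, number of genes tested in brackets) of log2 CPM minus the gene's own mean over the 4 libraries (x axis), circles for untreated and triangles for CCCP libraries. Untreated replicate 1 lies lowest in each of the 6 groups, from -0.49 for cytosolic ribosomal proteins to -0.10 for translation factors, and the 4 libraries coincide near 0 over all genes.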

How the data were processed

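Poly(A) RNA of 4 libraries was read, 2 untreated and 2 CCCP. Titles gave the groups; the header name of untreated replicate 1 differs from its title by a letter, and the file record was followed. The authors deposited unnormalized counts from featureCounts 2.0.3 on the mm10 RefSeq annotation, per the file headers. The kit was directional per the labels, but counting used no strand, read pairs were not counted as fragments, and multi-mapping and shared reads were not counted. HISAT2, SAMtools, FastQC and Subread are named in the submitters' processing notes, without versions. Members of the family with pseudogenes (6 annotated, at most 228 reads each) are therefore uncertain.

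The test was edgeR 4.0.16 (glmQLFit, glmQLFTest) in R 4.3.3 with TMM, filterByExpr (minimum count 10, total 15), group as the sole term, two-sided, adjusted over all 19837 genes. The standard error is the log2 fold change divided by the square root of F. With 2 libraries per group no exact permutation test can pass 0.05, and none was run. DESeq2 1.42.0 was an alternative, as were other scaling, filters, each library left out, the replicate block, and robust length trends (span 0.3). GC trends, from GENCODE transcripts of the same build, were added after the data were seen. The fits were tested on simulated data. A value of 3 counts corresponds to 0.0599 to 0.0827 CPM. The members and lists were chosen with earlier results of these data known. Named genes were, by a fixed rule, any that passed, the 6 smallest p-values without overlap per subunit at a mean of at least 10 CPM, those lower without overlap, the extremes of level per kilobase, 8 of known role, and the 3 smallest p-values of each further list. Others are named with their sequences or as the reason stated beside them.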

Additional observations from a re-analysis of the deposited data

How the results depend on the processing

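The count of 0 genes past an adjusted p-value of 0.05 held with DESeq2 (2.99% of all genes called) and with no filter in edgeR (3.43%). It also held with RLE scaling, a filter of 1 CPM, and the length or the GC trend removed, where 0 of all genes were called. At a threshold of 0.1 in edgeR, where the smallest adjusted p-value of all genes was 0.122, the count was also 0. With the replicate block it was 11 of 78 (all higher, against 3.8% of all genes called higher), with the replicate block and the length trend removed 2 (both higher, 2.81%), and with the replicate block and the GC trend removed 3 (all higher, 1.35%). The 11 were Mrpl2, Mrpl12, Mrpl20, Mrpl34, Mrpl44, Mrpl58, Mrps7, Mrps18a, Mrps21, Mrps23 and Mrps34. The 2 were Mrpl17 and Mrps23, and the 3 were Mrpl32, Mrps30 and Mrps33, so the genes called depended on the correction. Same-numbered libraries deviated together (correlation 0.36 over 19837 genes and 0.41 over the 78), but the labels do not tie the numbers to a day or litter. In the 3 lists of other mitochondrial translation genes the block called 3 of 49, Guf1 lower and Oxa1l and Tufm higher. It called 10.7% of all genes tested in either direction.

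Leaving out 1 library, the large subunit median ran from 0.13 to 0.49 and the small subunit median from 0.18 to 0.49. The distance from genes of the same length and level ran from -0.026 to 0.14 for the large and from 0.02 to 0.11 for the small subunit, and was 0.06 and 0.11 with 5 bins of each. The large subunit distance was below 0 without untreated replicate 1 and without CCCP replicate 2. Leaving out 1 library moved Mrpl1 between -0.22 and 0.053, Mrps10 between -0.14 and 0.33 and Mrps18b between -0.055 and 0.58. With the GC trend removed, Mrpl1 was at 0.21 and Mrpl50 at 0.067, and with the replicate block added at 0.21 and 0.068. The causes were not tested. Each gene had 302 or more reads in every library, and there were 2 libraries per group.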
